A study of Mus musculus with 4 samples.

Results

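The 10 genes described here encode the core of the transforming growth factor beta (TGF-beta) pathway: the ligand Tgfb1, the activating integrin chain Itgb8, the receptors Tgfbr1 and Tgfbr2, the signal carriers Smad2, Smad3 and Smad4, the inhibitory Smad7, and the corepressors Ski and Skil. They were taken by symbol from a table of raw counts with 24061 gene rows. All 10 had a row, and all 10 were among the 13022 genes that a filter on low counts left for testing. The RNA was that of effector regulatory T cells sorted from Peyer's patches, the lymphoid follicles of the mouse gut wall, as CD4+FoxP3+CD62L- cells with about 40000 cells a sample. All mice were 13 weeks old, on a C57BL/6 background (backcross generation 5), and carried FoxP3-YFP-cre, a Cre recombinase driven from the Foxp3 gene and so active in cells that express it. There were 4 libraries: flox 2 and flox 1, labelled Mafflox/floxFoxP3-YFP-cre, with both Maf alleles floxed, and wt 2 and wt 1, labelled Maf+/+FoxP3-YFP-cre, with intact Maf. The stated question was which transcripts need c-Maf, the transcription factor that Maf encodes.

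Maf counts followed the number in the titles and not the genotype label. There were 15 counts in flox 2 and 40 in wt 2, against 2975 in flox 1 and 3071 in wt 1. The pair numbered 2 is therefore called Maf-low below and the pair numbered 1 Maf-high, as a measured description. Each pair holds 1 library of each genotype label, and no library was moved to another genotype. The labels also hold a replicate number apart from the title, which is 1 for both wt and 2 for both flox libraries and so conflicts with the numbers in the titles. Which of these labels is right cannot be told from the counts, so every flox against wt value below compares labels and not known genotypes. Gene totals were 20809399 counts in flox 2 and 19368745 in wt 2, against 24687897 in flox 1 and 21148345 in wt 1. The labels do not say whether libraries came from separate animals, so p-values measure the spread between these libraries, which may be partly technical. In bulk RNA, fewer cells of a type and less RNA per cell cannot be told apart.

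TGF-beta is secreted in a latent form, held inactive by its own propeptide and tethered by carrier proteins. The integrin made of the alpha v and beta 8 chains binds the propeptide and frees the ligand, and regulatory T cells are known to use it. Active ligand joins the type II receptor to the type I receptor, which phosphorylates Smad2 and Smad3; these enter the nucleus with Smad4. Smad7 blocks the receptor, and Ski and Skil (SnoN) silence Smad target genes. In the gut the pathway is known for peripheral induction of regulatory T cells and for retention of T cells in the epithelium through the integrin CD103.

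Itgb8 showed the largest fitted difference of the 10 genes between Maf-low and Maf-high libraries and Nt5e was the other gene below the threshold with a single listed start, so their promoters are printed here. Each runs from 250 bases before to 50 bases after the RefSeq start, on the gene's strand (RefSeq, build GRCm38.p6). In GENCODE, another gene annotation, Itgb8 starts further out, at 119238802, so its window lies wholly inside that gene model. The bases before the GENCODE start were not searched. Capitals mark CAGAC, a box to which Smads are known to bind, or GTCTG, its reverse complement.
Itgb8 promoter, chr12:119238227-119238526, minus strand: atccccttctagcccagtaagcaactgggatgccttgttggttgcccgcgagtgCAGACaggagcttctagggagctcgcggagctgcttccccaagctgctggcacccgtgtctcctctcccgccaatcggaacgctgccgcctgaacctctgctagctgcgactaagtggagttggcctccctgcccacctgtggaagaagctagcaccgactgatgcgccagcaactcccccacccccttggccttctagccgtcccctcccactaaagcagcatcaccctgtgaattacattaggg
Nt5e promoter, chr9:88327359-88327658, plus strand: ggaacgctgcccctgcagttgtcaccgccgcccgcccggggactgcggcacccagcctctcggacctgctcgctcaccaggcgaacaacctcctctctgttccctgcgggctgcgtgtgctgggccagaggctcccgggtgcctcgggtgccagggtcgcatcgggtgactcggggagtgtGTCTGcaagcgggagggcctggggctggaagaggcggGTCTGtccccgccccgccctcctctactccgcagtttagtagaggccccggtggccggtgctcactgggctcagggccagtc

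The Itgb8 window holds 1 such box, which begins at position -196 from the RefSeq start, and the Nt5e window holds 2, at -69 and -32. On either strand the box occurs in 49.6% of the 32851 promoter windows of the same length, so a match is common. TGCTGA, the outer part of the Maf recognition element, was searched on both strands and is in neither window; 19.5% of all windows hold it. Promoter windows were listed for 6 of the 10 genes. Among them TGCTGA occurs only in the second of the 2 listed windows of Tgfbr1. These are matches of letters and not measured binding.

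Between Maf-low and Maf-high libraries, edgeR's quasi-likelihood test called 2 of the 10 genes at an adjusted p under 0.05, with adjustment over all genes tested, and both were lower in the Maf-low pair. They were Itgb8, which fell to 0.518 of its Maf-high level, and Skil, which fell to 0.696. Of all 13022 genes 1.81% passed, 1.41% in the lower direction and 0.399% in the higher. For 5 of the 10 genes (Itgb8, Skil, Smad3, Smad7 and Tgfbr2) both Maf-low libraries lay below both Maf-high libraries, and for 0 they lay above; over all genes the share was 22.5% below and 22.7% above. An unadjusted p under 0.05 was found for the same 5 of the 10 genes, against 13.6% of all genes. The median log2 fold change of the 10 genes was -0.26, against 0.0089 over all genes. The 10 genes were chosen with earlier results of these data known, so these shares and medians are described only. Exact permutation of the libraries gives no two-sided p smaller than 0.333 in this design and was left out.

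Itgb8 encodes the beta 8 integrin chain and spans 119158022 to 119238802 of chromosome 12 on the minus strand (build mm10, as for the other genes). It had 868 and 705 counts in flox 2 and wt 2, against 1722 and 1601 in flox 1 and wt 1. Scaled to counts per 1000000 counts of the library (CPM, on TMM library sizes) these were 41.98 and 34.9, against 70.5 and 77.8. The groups were well apart, with means of 38.4 ± 5.04 CPM in Maf-low and 74.2 ± 5.16 CPM in Maf-high libraries (SD, n = 2 each). The log2 fold change was -0.95 (SE 0.13, 95% interval -1.26 to -0.63, edgeR adjusted p = 0.0256). Within the flox label the ratio of number 2 to number 1 was 0.595 (95% interval 0.548 to 0.646), and within the wt label it was 0.448 (0.409 to 0.49); these intervals cover counting error only. The direction was thus the same in both label pairs. The call was lost without flox 1 (adjusted p = 0.0638) and without wt 1 (adjusted p = 0.188), which leave 1 Maf-high library.

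Tgfb1, the ligand, lies on chromosome 7 at 25687002 to 25705077. It had 218 and 162 CPM in flox 2 and wt 2, against 204 and 220 CPM in flox 1 and wt 1. Only wt 2 was low, and the groups overlapped. The log2 fold change was -0.16 with a 95% interval of -0.51 to 0.20 (edgeR adjusted p = 0.728), so an unchanged level and a modest fall both lie within the error.

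**Figure D1:**
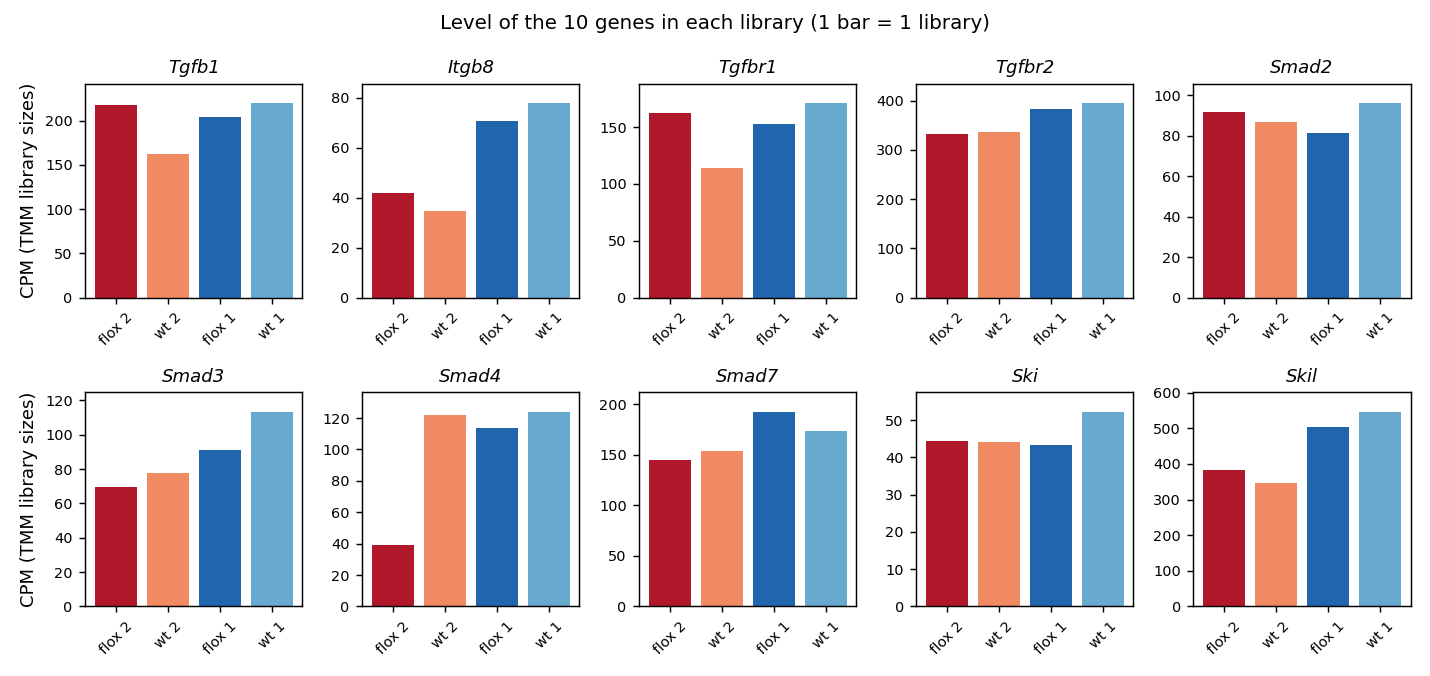
CPM of each of the 10 genes in the 4 libraries, 1 bar a library, with the Maf-low pair (flox 2, wt 2) on the left and the Maf-high pair (flox 1, wt 1) on the right of each panel; each axis starts at 0. Itgb8, Skil, Smad3, Smad7 and Tgfbr2 are lower in both Maf-low libraries, and Smad4 is low in flox 2 only (39.0 CPM).

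Of the receptors, neither passed. Tgfbr2, the type II receptor that binds the ligand (chromosome 9, 116084293 to 116175360), had 333 and 336 CPM in flox 2 and wt 2, against 383 and 395 CPM in flox 1 and wt 1. The groups did not overlap, and the log2 fold change of -0.22 (95% interval -0.40 to -0.037) had an unadjusted p of 0.0255 and an edgeR adjusted p of 0.273. Tgfbr1, the type I receptor kinase (chromosome 4, 47353222 to 47414931), had 162 and 114 CPM in flox 2 and wt 2, against 153 and 171 CPM in flox 1 and wt 1. As for Tgfb1, wt 2 was the low library and flox 2 lay among the Maf-high values. Its log2 fold change was -0.23 (95% interval -0.66 to 0.20, edgeR adjusted p = 0.661).

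Of the receptor-regulated Smads, Smad3 (chromosome 9, 63646767 to 63757994) had 69.3 and 78.0 CPM in flox 2 and wt 2, against 90.9 and 113 CPM in flox 1 and wt 1. The groups did not overlap; the log2 fold change was -0.47 (95% interval -0.79 to -0.15), with an unadjusted p of 0.0106 and an edgeR adjusted p of 0.184. Smad2, its close relative (chromosome 18, 76241580 to 76310963), had 91.9 and 87.0 CPM in flox 2 and wt 2, against 81.6 and 96.2 CPM in flox 1 and wt 1. Its values overlapped fully, with a log2 fold change of 0.010 (95% interval -0.26 to 0.28, edgeR adjusted p = 0.983). Whether Smad3 and Smad2 differ in their response was not tested.

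Smad7, the inhibitor that is itself induced by TGF-beta (chromosome 18, 75367529 to 75395935), had 145 and 154 CPM in flox 2 and wt 2, against 192 and 174 CPM in flox 1 and wt 1. Both Maf-low values lay below both Maf-high values, by a log2 fold change of -0.29 (95% interval -0.51 to -0.071, unadjusted p = 0.0172, edgeR adjusted p = 0.228).

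Skil encodes SnoN, a corepressor whose gene TGF-beta signals also induce (chromosome 3, 31095058 to 31122577). It had the highest counts of the 10 genes in both Maf-high libraries and in both Maf-low ones. There were 7916 and 7019 counts in flox 2 and wt 2, against 12281 and 11236 counts in flox 1 and wt 1, or 383 and 347 CPM against 503 and 546 CPM. The groups were separate, at 365 ± 25.3 CPM in Maf-low and 525 ± 30.6 CPM in Maf-high libraries (SD, n = 2 each), with a log2 fold change of -0.52 (SE 0.09, 95% interval -0.74 to -0.31). Its edgeR adjusted p of 0.0488 was close to the threshold and was 0.0503 with RLE size factors, 0.0533 by limma-voom, 0.0706 without robust dispersions and 0.0896 with the genotype label as a block. It was 0.155 without flox 1 and 0.375 without wt 1. Within the flox label the ratio of number 2 to number 1 was 0.761, and within the wt label it was 0.635.

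Ski, the relative of Skil (chromosome 4, 155154075 to 155222592), had 44.3 and 44.2 CPM in flox 2 and wt 2, against 43.3 and 52.2 CPM in flox 1 and wt 1. The wt 1 library alone stood a little higher, and the log2 fold change was -0.11 (95% interval -0.42 to 0.20, edgeR adjusted p = 0.789).

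**Figure D2:**
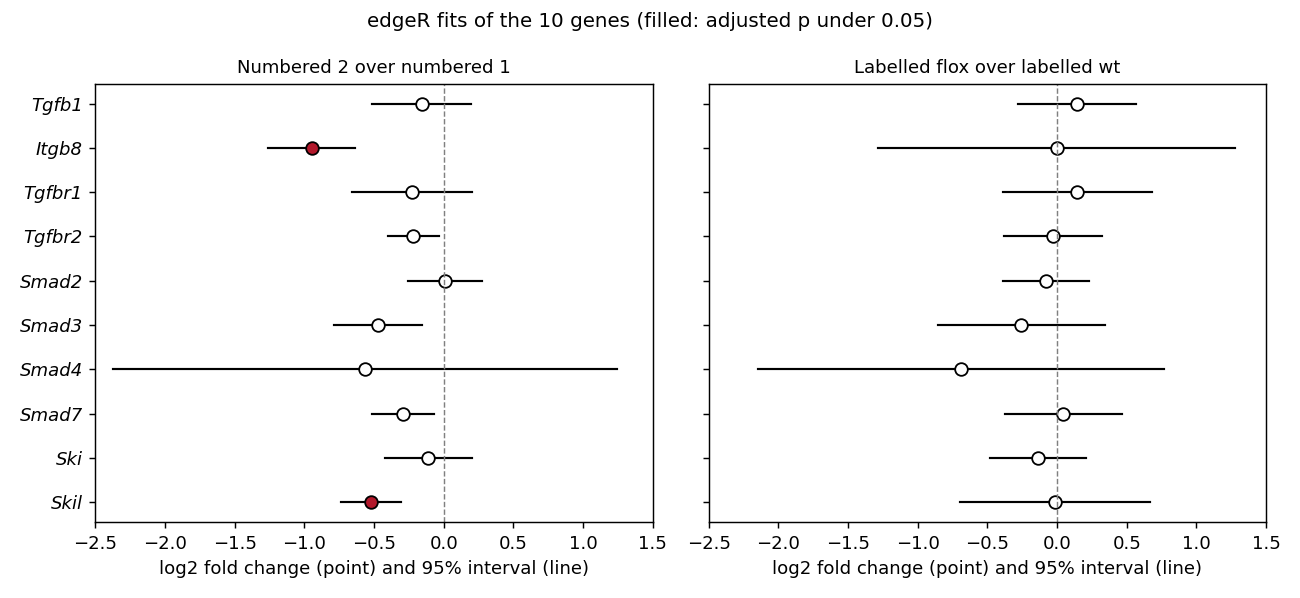
Log2 fold changes of the 10 genes with 95% intervals from edgeR, for numbered 2 over numbered 1 (left) and labelled flox over labelled wt (right); filled points had an adjusted p under 0.05. On the left Itgb8 (-0.95) and Skil (-0.52) are filled and the interval of Smad4 is the widest; on the right 0 points are filled.

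Smad4, the partner shared by all receptor-regulated Smads, set 1 library apart. Smad4 (chromosome 18, 73639009 to 73703780, minus strand) had 806 counts in flox 2 and 2466 in wt 2, against 2772 in flox 1 and 2550 in wt 1. As CPM these were 39.0 and 122, against 114 and 124. Within the flox label the ratio of number 2 to number 1 was 0.343 (95% interval 0.317 to 0.371, counting error only), whereas within the wt label it was 0.983 (0.93 to 1.04). Neither comparison called Smad4: the log2 fold change was -0.56 (SE 0.61, edgeR adjusted p = 0.787) for Maf-low over Maf-high and -0.69 (SE 0.53, edgeR adjusted p = 1) for labelled flox over labelled wt. Without flox 2 the first of these was 0.041 and the second -0.11. Without flox 1 the second was -1.65. Without wt 2, where flox 2 stands alone on the Maf-low side, the first (Maf-low over Maf-high) was -1.60. The second (labelled flox over labelled wt) was then -0.69. Each of these fits leaves 1 library alone in a group, so only its fold change is given here.

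Among the 5961 genes whose mean log2 CPM was 5 or more, Smad4 ranked 6 from the bottom by the ratio of flox 2 to the lowest of the other libraries. Only 15 of these genes (0.252%) had a ratio of 0.5 or less in flox 2; there were 0 such genes for wt 2, 2 for flox 1 and 7 for wt 1. The tested genes within 1 Mb of Smad4, looked up after its counts were seen, differed among themselves. Mex3c, an RNA-binding ubiquitin ligase whose start is 131 kb to 1 side, had 43.3 CPM in flox 2 and 86.5 in wt 2, against 95 in flox 1 and 106 in wt 1. Elac1, a tRNA-processing enzyme whose start is 50.7 kb to the other side, had 24.2 CPM in flox 2 and 32.9 in wt 2, against 21.8 in flox 1 and 24.4 in wt 1. Me2, Cxxc1 and Mbd1, further out, were near the level of the other libraries in flox 2. Myo5b, an unconventional myosin and the farthest, had 8.51 CPM in flox 2 and 6.13 in wt 2, against 5.82 in flox 1 and 2.58 in wt 1. The flox 2 library also had high heat shock transcripts, with a sum over 6 genes of 9340 CPM, against 2920 to 3490 CPM in the other 3 libraries; the part of this in the Smad4 value was not tested.

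**Figure D3:**
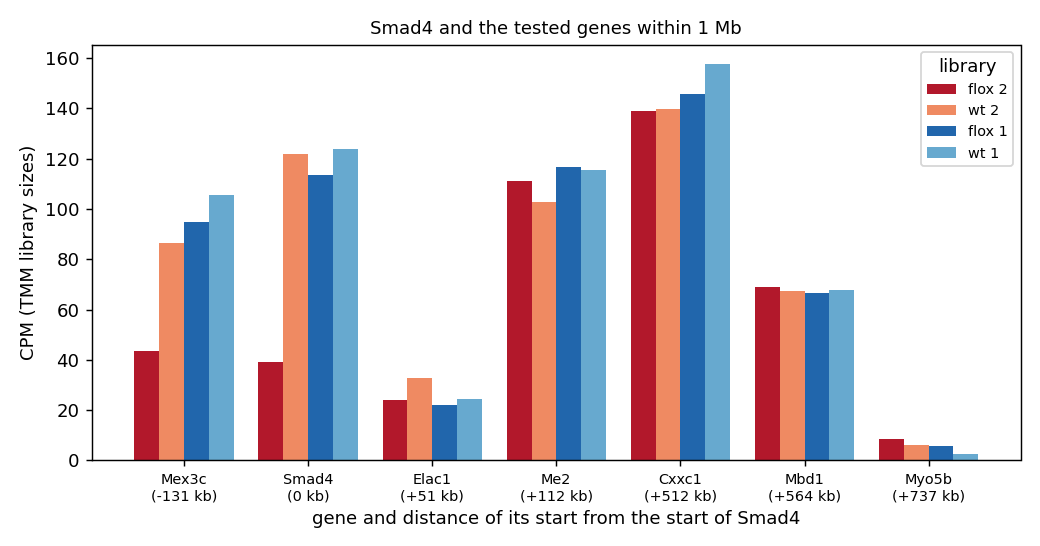
CPM of Smad4 and of the tested genes within 1 Mb in the 4 libraries, ordered by the distance of each gene's start from that of Smad4; each bar is 1 library. In flox 2, Smad4 and Mex3c are low, while Elac1 and Me2 are at the level of the other libraries.

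By genotype label, edgeR's quasi-likelihood test called 0 of the 10 genes, against 1 of all genes (0.00768%). An unadjusted p under 0.05 was found for 0 of the 10, against 1.98% of all genes, and DESeq2 and limma-voom also called 0 of the 10. The groups were separate for 1 of the 10 genes, Smad4, against 27% of all genes. Itgb8 averaged 56.3 CPM in labelled flox and 56.4 CPM in labelled wt libraries, with a log2 fold change of -0.0016 and a 95% interval of -1.28 to 1.28. For Skil the means were 443 CPM in labelled flox and 447 CPM in labelled wt, with a 95% interval of -0.69 to 0.67 for the log2 fold change. Each label group here holds 1 Maf-low and 1 Maf-high library. The median log2 fold change of the 10 genes was -0.021, and that of all genes was 0.0011.

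Levels can be compared between genes per length only, here as CPM per kilobase of merged exons in the GENCODE annotation, as the mean and SD over the 4 libraries. Skil (45.9 ± 9.8), Tgfbr2 (44.2 ± 3.9), Tgfb1 (39.9 ± 5.35) and Smad7 (36.8 ± 4.68) were the most abundant of the 10. Smad4 (26.8 ± 11), Tgfbr1 (23.0 ± 3.86) and Smad3 (15.9 ± 3.46) followed, and Smad2 (10.2 ± 0.717), Ski (8.27 ± 0.749) and Itgb8 (5.09 ± 1.91) were lowest. The ranges of neighbours in this order overlapped, except between Smad3 and Smad2 and between Ski and Itgb8. The place of Tgfb1 depends on the gene model: with the longest coding transcript as its length it had 92.5 CPM per kilobase, the highest of the 10, and Skil had 66.2. Of the 2 genes that fell in Maf-low libraries, Skil had the highest mean per length of merged exons and Itgb8 the lowest. The place of Skil at the top is not settled, since its range overlapped that of Tgfbr2.

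The wider pathway was read from 6 lists with 91 names, of which 72 were tested. Of these, 5 fell in Maf-low libraries and 0 rose by edgeR's adjusted p, where 1.41% of all genes tested fell and 0.399% rose. The median log2 fold change of all genes, beside which the medians of the lists stand, was 0.0089. The lists are small, were chosen with earlier results of these data known, and are described only. The genes that fell included Mmp9 and Ltbp4 of the activation list, Tgif1 of the cofactors and Nt5e of the known responders.

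In the activation list 2 of 14 tested genes fell and 0 rose (all genes 1.41% and 0.399%), with a median log2 fold change of -0.28 (all genes 0.0089). Mmp9, a matrix protease that can release latent TGF-beta, had 1.64 and 3.26 CPM in flox 2 and wt 2, against 48.4 and 40.6 CPM in flox 1 and wt 1 (log2 fold change -4.18, SE 0.31, edgeR adjusted p = 0.00423). Ltbp4, a latent TGF-beta binding protein, had 4.84 and 6.28 CPM in flox 2 and wt 2, against 26.1 and 17.2 CPM in flox 1 and wt 1 (log2 fold change -1.96, SE 0.27, edgeR adjusted p = 0.0256). Both genes were well separated by number. For Ltbp4 the adjusted p was 0.0606 by limma-voom, 0.103 without flox 1 and 0.0602 without wt 1.

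Genes that act beside Itgb8 are given next; these 4 were picked after their values were seen. Itgav, the alpha v chain that pairs with beta 8, had 169 and 131 CPM in flox 2 and wt 2, against 227 and 255 CPM in flox 1 and wt 1, and did not pass (log2 fold change -0.68, 95% interval -1.02 to -0.35, edgeR adjusted p = 0.0855). Lrrc32 (GARP), which tethers latent TGF-beta to the regulatory T cell surface, had 971 and 541 CPM in flox 2 and wt 2, against 752 and 829 CPM in flox 1 and wt 1. Its extremes were both in Maf-low libraries. Nrros, another tether, had 95.6 and 88.1 CPM in flox 2 and wt 2, against 72.1 and 70.3 CPM in flox 1 and wt 1, a log2 fold change of 0.37 with an edgeR adjusted p of 0.149. Furin, a protease that cleaves the TGF-beta precursor, had 85.9 and 167 CPM in flox 2 and wt 2, against 248.5 and 227 CPM in flox 1 and wt 1 (edgeR adjusted p = 0.374).

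Of 4 tested other ligands and 7 tested other receptors, 0 passed (all genes 1.81%), with median log2 fold changes of 0.11 and 0.043 (all genes 0.0089). Tgfb3, a second ligand of the same receptors, had 0.532 and 0.841 CPM in flox 2 and wt 2, against 2.70 and 2.92 CPM in flox 1 and wt 1 (edgeR adjusted p = 0.154). Bmp7, a bone morphogenetic protein, had 71.6 and 64.8 CPM in flox 2 and wt 2, against 87.7 and 92.5 CPM in flox 1 and wt 1 (adjusted p = 0.14 by edgeR). Tgfb2 had 2 to 8 counts in each library and was not tested. Among receptors, Acvrl1, a type I receptor, had 3.72 and 5.64 CPM in flox 2 and wt 2, against 1.27 and 1.02 CPM in flox 1 and wt 1 (edgeR adjusted p = 0.1). Bmpr1a, a receptor for bone morphogenetic proteins, had 2.56 and 3.51 CPM in flox 2 and wt 2, against 7.05 and 6.47 CPM in flox 1 and wt 1 (edgeR adjusted p = 0.194).

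Of 11 tested other Smads and cofactors 1 fell and 0 rose (all genes 1.41% and 0.399%). The gene that fell was Tgif1, a homeobox corepressor of Smads. It had 348 and 310 CPM in flox 2 and wt 2, against 585 and 573 CPM in flox 1 and wt 1 (log2 fold change -0.82, SE 0.09, edgeR adjusted p = 0.0108). The call was lost when flox 1 (adjusted p = 0.0555) or wt 1 (adjusted p = 0.0963) was left out. Runx3, a Smad partner, had 132 and 100 CPM in flox 2 and wt 2, against 72.0 and 82.2 CPM in flox 1 and wt 1 (log2 fold change 0.59, edgeR adjusted p = 0.149). The median of the list was -0.13 (all genes 0.0089).

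Of 17 tested brakes of the pathway 0 passed (all genes 1.81%), with a median log2 fold change of -0.13 (all genes 0.0089). Smurf2, a ubiquitin ligase that acts with Smad7, had 114 and 119 CPM in flox 2 and wt 2, against 95.9 and 95.4 CPM in flox 1 and wt 1 (edgeR adjusted p = 0.199). Ppm1a, a Smad phosphatase, had 68.4 and 73.6 CPM in flox 2 and wt 2, against 83.6 and 96.8 CPM in flox 1 and wt 1 (edgeR adjusted p = 0.237).

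Of 19 tested genes known to respond to TGF-beta in T cells, 2 fell and 0 rose (all genes 1.41% and 0.399%), and the median log2 fold change was 0.15 (all genes 0.0089). Nt5e, the ecto-enzyme CD73, had 940 and 750 CPM in flox 2 and wt 2, against 1374 and 1518 CPM in flox 1 and wt 1 (log2 fold change -0.78, SE 0.12, edgeR adjusted p = 0.0381). Its adjusted p was 0.0531 without robust dispersions, 0.0744 with the genotype label as a block, 0.0978 without flox 1 and 0.255 without wt 1. Itgae, which encodes CD103 and is a classic TGF-beta response gene, was picked after its values were seen. It had 1561 and 1359 CPM in flox 2 and wt 2, against 860 and 568 CPM in flox 1 and wt 1, opposite in sign to Nt5e, but did not pass (log2 fold change 1.03, 95% interval 0.45 to 1.62, edgeR adjusted p = 0.149). The responders therefore held genes with values in both directions.

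**Figure D4:**
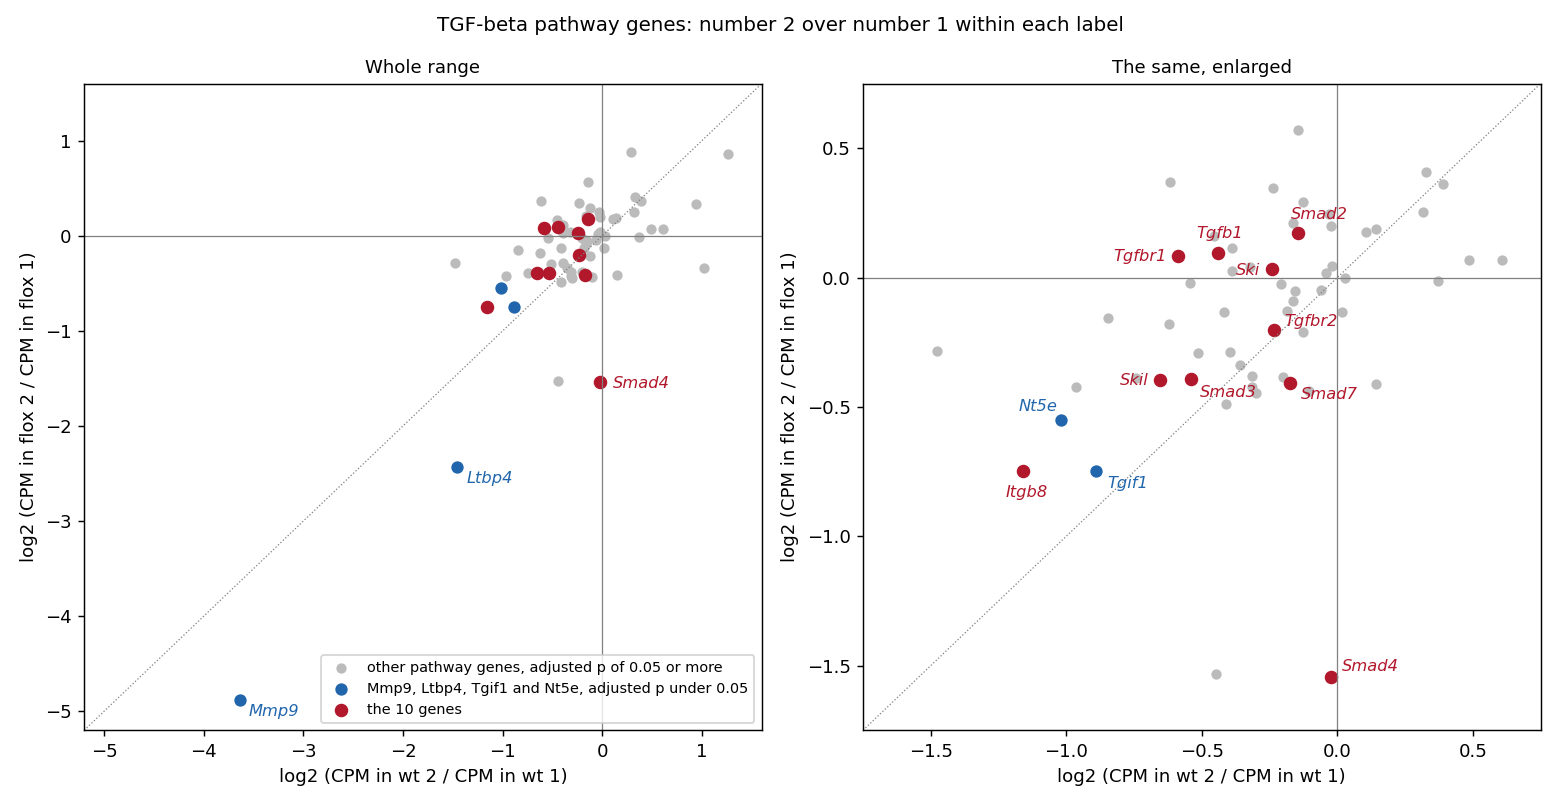
Log2 ratio of number 2 to number 1 within the wt label (horizontal) and within the flox label (vertical) for the 10 genes (red), 4 other pathway genes past the threshold, Mmp9, Ltbp4, Tgif1 and Nt5e (blue), and pathway genes that did not pass and whose mean log2 CPM was 3 or more (grey); the right panel enlarges the centre. Itgb8, Skil, Smad3, Smad7 and Tgfbr2 lie below 0 on both axes, and Tgfb1, Tgfbr1, Smad2 and Ski below 0 on the horizontal axis only. Smad4 lies far below 0 on the vertical axis and close to 0 on the horizontal one.

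The genes whose profile over the 4 libraries was nearest to that of Itgb8, of 8692 compared, were Nfic, Pim2, Ifngr2, Cdk6 and Grhl1. The measure was the root mean square distance of centred log2 CPM, and it was 0.0382 for Nfic, a nuclear factor I transcription factor, and 0.0693 for Grhl1. Nfic had 17.2 and 15.1 CPM in flox 2 and wt 2, against 28.4 and 32.4 CPM in flox 1 and wt 1. With 4 libraries this is a description, with no test.

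The sorted cells carried their defining transcripts, with Foxp3 at 91.0 to 104 CPM, Cd4 at 919 to 997 CPM and Cd3e at 1240 to 1370 CPM. Their markers as a list did not all stay level. Summed over 7 regulatory T cell markers, CPM was 5670 in flox 2 and 5060 in wt 2, against 6700 in flox 1 and 6900 in wt 1. Ctla4 carried this gap, at 2080 and 1630 CPM in flox 2 and wt 2, against 3340 and 3340 CPM in flox 1 and wt 1. Without it the other 6 summed to 3590 and 3440 CPM in flox 2 and wt 2, against 3360 and 3560 CPM in flox 1 and wt 1. Over Ccr7, Lef1 and Tcf7, markers of naive and central T cells, the sums were 1880 and 1530 CPM in flox 2 and wt 2, against 1940 and 2310 CPM in flox 1 and wt 1. They did not overlap, and Tcf7 had 460 and 624 CPM in flox 2 and wt 2, against 708 and 841 CPM in flox 1 and wt 1. Transcripts of other cell types were also present. Summed CPM over the 13 myeloid and dendritic markers with a row was 59.6 in flox 2 and 67.4 in wt 2, against 106 in flox 1 and 16.3 in wt 1. Over the 12 epithelial markers it was 320 CPM in flox 2 and 437 in wt 2, against 454 in flox 1 and 191 in wt 1. Lyz2 led the first list, at 42.9 and 41.2 CPM in flox 2 and wt 2, against 66.8 and 7.97 CPM in flox 1 and wt 1. Epcam led the second, at 89.2 and 140 CPM in flox 2 and wt 2, against 91.8 and 75.8 CPM in flox 1 and wt 1. Sums over 9 B cell markers were 69.0 and 78.5 CPM in flox 2 and wt 2, against 128 and 61.1 CPM in flox 1 and wt 1. Sums over 11 stromal and endothelial markers, most of them Pecam1, were 67.7 and 86.8 CPM in flox 2 and wt 2, against 82.1 and 76.7 CPM in flox 1 and wt 1. Sums over 7 CD8 T and natural killer markers were 102 and 87.2 CPM in flox 2 and wt 2, against 63.5 and 56.7 CPM in flox 1 and wt 1. These did not overlap, and the gap rested on Klrb1c, at 68.5 and 44.9 CPM in flox 2 and wt 2, against 21.2 and 22.5 CPM in flox 1 and wt 1. The other 6 summed to 33.7 and 42.3 CPM in flox 2 and wt 2, against 42.3 and 34.1 CPM in flox 1 and wt 1, which overlap. Of all these markers with a row, 1 of the myeloid list (Fcgr1) and 1 of the stromal list (Lum) had 0 counts in all libraries, and the rest were found in at least 1. The part of any of these cells in the values of the 10 genes was not tested.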

How the data were processed

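RNA was sequenced from 4 libraries, 2 for each genotype label. The submitters' processing notes name build mm10, HTSeq 0.6.1, TopHat2 2.1.1 and edgeR 3.14. Neither strand use nor the gene annotation is given in their text as used here. The authors deposited raw counts per gene symbol, and 5 counter summary rows, 66.6% to 67.2% of each column total, were left out. They also deposited a normalized signal for 10618 rows. Classic edgeR pseudo-counts recomputed from the raw counts matched 100% of its 42472 values within a relative error of 1e-06 when libraries were grouped by title number, and 3.25% when grouped by genotype label.

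The test on counts was that of edgeR 4.0.16 under R 4.3.3 (filterByExpr, TMM, glmQLFit with robust dispersions, glmQLFTest), with Benjamini-Hochberg adjustment over 13022 genes and a threshold of 0.05. The pair numbered 2 was set against the pair numbered 1, and labelled flox against labelled wt. Standard errors are the log2 fold change over the root of F, and intervals are at 95%. Within-label ratios have exact binomial intervals, for counting error only. The fits were tested on simulated counts. Alternatives were DESeq2 1.42.0, limma-voom 3.58.1, other scalings and filters, blocks, and leaving out each library.

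Positions and exon lengths come from GENCODE for the same genome, and promoters from RefSeq (GRCm38.p6). Named genes were the 10 genes, Maf, list genes past the threshold, the 2 of smallest p in each list, and the 5 nearest in profile to Itgb8; some genes under this rule are not reported here. The 10 genes and all lists were chosen with earlier results of these data known. Among the gene rows, 27 symbols had been turned into dates, 19 of them tested; these are not named.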

Additional observations from a re-analysis of the deposited data

Results flagged for a closer look

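In 3 of the 10 genes the ratio of number 2 to number 1 went opposite ways in the 2 labels, with counting intervals on opposite sides of 1. For Tgfb1 it was 1.069 within flox and 0.7367 within wt. For Tgfbr1 it was 1.061 within flox and 0.666 within wt. For Smad2 it was 1.127 within flox and 0.9046 within wt. Each ratio compares 1 library with 1 library, so the difference between the labels was not tested. The intervals cover counting error only and are narrow at these counts. The share of all genes with this pattern was not computed, so it is not shown to be particular to these genes.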

How the results depend on the processing

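Numbered 2 against numbered 1 called 236 genes, and 589 with no filter on low counts, 635 by DESeq2 and 46 to 525 when 1 library was left out; 46 was without wt 1 and 116 without flox 1. Of the 10 genes 2 were called, and 1 (Itgb8) with RLE size factors, by limma-voom, without robust dispersions and with the genotype label as a block, and 0 to 3 when 1 library was left out. Smad3 was the third gene called with no filter (adjusted p = 0.0296). Without wt 2 the added gene was Smad4, with flox 2 alone on the Maf-low side. Labelled flox against labelled wt called 1 gene, and 2 with no filter, 12 by DESeq2, 0 by limma-voom (262 at an unadjusted p under 0.05) and 0 without any 1 library.

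When 1 library was left out, log2 fold changes of Maf-low over Maf-high ran from -0.39 to 0.045 for Tgfb1, -0.50 to 0.0071 for Tgfbr1, -0.11 to 0.14 for Smad2, -1.60 to 0.041 for Smad4 and -0.24 to 0.032 for Ski. By label they ran from -0.053 to 0.38 for Tgfb1, -0.11 to 0.47 for Tgfbr1, -0.14 to 0.092 for Tgfbr2, -0.17 to 0.0067 for Smad2, -0.49 to 0.038 for Smad3, -1.65 to -0.11 for Smad4, -0.17 to 0.24 for Smad7, -0.46 to 0.69 for Itgb8, -0.30 to 0.35 for Skil and -6.69 to 4.95 for Maf. By label Itgb8 was 0.0011 with RLE size factors, 0.0031 with no filter, 0.00070 by DESeq2, 0.074 by limma-voom and 0.058 with the replicate block, and Skil was 0.011 by limma-voom and 0.011 with the replicate block. The causes were not tested. The block of the title number left 1 gene called by label. Deviations from the label means of same-numbered libraries correlated at 0.264 across genes, which with 2 pairs does not establish a pairing.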

Other observations

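Besides Smad4 and Mex3c, another gene of chromosome 18 stood low in flox 2. Mbd2, a reader of methylated DNA at 70568189 to 70626131, named after its values were seen, had 40.2 CPM in flox 2 and 149 in wt 2, against 118 in flox 1 and 148 in wt 1. Genes of other chromosomes ranked lower than Smad4 by the same ratio: Tmem87a (chromosome 2), Ly6e (chromosome 15), Gna12 (chromosome 5) and Ybx3 (chromosome 6). Of the 16 lowest genes, down to Mex3c, 3 (18.8%) were on chromosome 18, a cut set after the values were seen. Of all 5961 genes ranked, 158 (2.65%) were on that chromosome. Smad7, also on chromosome 18, had 145 CPM in flox 2 and 154 in wt 2, against 192 in flox 1 and 174 in wt 1, so flox 2 was its lowest library. Smad2, on the same chromosome, had 91.9 CPM in flox 2 and 87.0 in wt 2, against 81.6 in flox 1 and 96.2 in wt 1. The genes between Mbd2 and Smad4 were not examined as a set, and no test was made.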
